A study of Mus musculus with 4 samples.

Results

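The genes described here are 9 mouse apolipoproteins (Apoa1, Apoa2, Apoa4, Apoa5, Apob, Apoc1, Apoc2, Apoc3 and Apoe) and Mttp, the lipid transfer protein that loads lipid onto apolipoprotein B. They were taken from the deposited expression table by gene symbol, with no cutoff on measured values. The list was chosen with earlier results of these data known. All 10 were found among the 24493 gene symbols of the table. The table holds RNA sequencing of 4 libraries from cultures derived from C57BL/6 mouse hepatocytes. In Bil_2D (2 libraries) the hepatocytes had become biliary cells and were grown in 2D, and in Hep_3D (2 libraries) they were hepatocytes grown in 3D. Both states come from the same 2 clones: replicate 1 of each group is clone 15C7 and replicate 2 is clone 19H5, and no treatment was applied to any culture. Culture format changed together with cell state in every library, so the effects of state and format cannot be told apart, and each clone gave only 1 library per state.

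Hepatocytes build very low density lipoprotein (VLDL) around apolipoprotein B, which receives triglyceride from the Mttp protein in the endoplasmic reticulum before secretion. They also secrete apolipoproteins A-I and A-II, the main proteins of high density lipoprotein (HDL), and the small exchangeable apolipoproteins C and E, which move between particles and set how fast lipases and receptors clear them. Bile duct cells are not known as a major source of plasma lipoproteins.

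The members lie in 2 gene groups and at 3 other loci of the mm10 genome (positions from GENCODE M21 on the same build, GRCm38). Apoa1, Apoc3, Apoa4 and Apoa5 stand within 43.3 kb on chromosome 9, and Apoe, Apoc1 and Apoc2, with the further gene Apoc4, within 27.6 kb on chromosome 7. Apoa2, Apob and Mttp are on chromosomes 1, 12 and 3. RefSeq promoters (GRCm38.p6) were matched for 8 members, and Apoc1 and Apoc3 had no entry. The bases upstream of the start sites of 6 members follow, 5′ to 3′ on the gene's strand. Apoa1, Apoa2 and Apoa4 are shown as the HDL proteins that rose in Hep_3D, Apob because its fold change was the lowest of the members that rose, and Apoc2 and Apoe because, after Apoc1, they differed most between the clones in Bil_2D. Capitals mark matches on either strand to CAAAGNNCA (the core of a direct repeat bound by HNF4-type nuclear receptors), GTTAAT (part of the HNF1 site), CCAAT or TATAA.
Apoa1 (chr9:46228380-46228579, plus strand): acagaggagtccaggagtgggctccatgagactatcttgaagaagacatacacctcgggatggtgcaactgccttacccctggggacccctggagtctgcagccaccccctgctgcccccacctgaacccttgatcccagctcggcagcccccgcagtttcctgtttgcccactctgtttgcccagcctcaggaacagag
Apoa2 (chr1:171224804-171225053, plus strand): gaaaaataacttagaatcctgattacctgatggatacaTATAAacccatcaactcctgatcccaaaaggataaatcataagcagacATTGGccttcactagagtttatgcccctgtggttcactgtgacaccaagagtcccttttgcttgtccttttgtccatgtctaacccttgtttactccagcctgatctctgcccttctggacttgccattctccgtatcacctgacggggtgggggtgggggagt
Apoa4 (chr9:46240594-46240695, plus strand): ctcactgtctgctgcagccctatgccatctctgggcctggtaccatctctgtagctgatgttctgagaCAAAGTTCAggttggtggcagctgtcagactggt
Apob (chr12:7977427-7977647, plus strand): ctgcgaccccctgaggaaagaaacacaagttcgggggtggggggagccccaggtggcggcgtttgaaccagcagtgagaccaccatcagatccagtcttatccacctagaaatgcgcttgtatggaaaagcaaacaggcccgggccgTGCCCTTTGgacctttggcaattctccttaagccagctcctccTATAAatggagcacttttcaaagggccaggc
Apoc2 (chr7:19677942-19678082, minus strand): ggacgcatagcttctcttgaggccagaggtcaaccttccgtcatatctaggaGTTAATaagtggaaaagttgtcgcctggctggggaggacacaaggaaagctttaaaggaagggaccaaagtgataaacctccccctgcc
Apoe (chr7:19699189-19699438, minus strand): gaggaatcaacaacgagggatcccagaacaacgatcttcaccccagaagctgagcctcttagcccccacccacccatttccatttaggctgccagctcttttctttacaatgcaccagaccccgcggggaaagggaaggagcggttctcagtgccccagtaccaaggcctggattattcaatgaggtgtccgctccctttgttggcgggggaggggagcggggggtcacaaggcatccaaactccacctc

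Each motif was searched in the 250 bases before the RefSeq start site, and the printed runs leave out bases inside the GENCODE gene itself or, for Apoc2, inside Apoc4. CAAAGNNCA was matched in Apoa4, 182 bases before the start, and in Apob, 103 bases before it; it occurs in 5.49% of all 32851 RefSeq windows of that length. GTTAAT was matched in Apoc2 only among the 8 windows (6.43% of all windows). CCAAT was matched in Apoa2 only (33.8% of all). TATAA was matched in Apoa2, Apoa5 and Apob (22.8% of all). None of the 4 motifs was matched in the windows of Apoa1, Apoe and Mttp. The Mttp window lies inside the GENCODE gene, with 0 bases left upstream of it. The bases before the GENCODE start of Mttp were therefore not searched. The matches given are of letters and not measured binding sites.

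Values are TPM, transcripts per 1000000, corrected for gene length, which allows levels to be compared between genes but keeps no sequencing depth, so counting error is unknown. Differences were tested with limma on log2(TPM + 1) over 12336 genes and called under an adjusted p of 0.05. The median of all genes tested was -0.73 on this TPM scale and -0.02 once each library was divided by its median-of-ratios size factor, so results are given both ways. With 2 libraries a group an exact permutation test of a single value cannot go below p = 0.333. To set the labels against markers in TPM, 7 of 9 hepatocyte markers were higher in both Hep_3D libraries than in both Bil_2D libraries, where 11.1% of all genes tested were. Cyp2e1 stayed between 1.96 and 3.53 TPM and Pck1 under 1 TPM throughout. Of 9 biliary markers 6 were lower in both Hep_3D libraries than in both Bil_2D libraries, where 71.9% of all genes tested were, while Spp1 and Muc1 were higher there and Epcam was at most 2.59 TPM. The summed TPM of the 9 biliary markers was 5799 and 9356 in Bil_2D and 13152 and 9454 in Hep_3D, most of it Spp1 (4176 and 6092, then 13093 and 9284 TPM). In these bulk cultures fewer cells making a transcript and less transcript per cell cannot be told apart.

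As a sum, the transcripts of the 10 genes were far higher in the hepatocyte cultures. Not every member followed: Apoa5 and Apoc2 were called on neither scale, and Apob had the lowest fold change of those that rose. In the Hep_3D libraries of clones 15C7 and 19H5 the 10 genes made up 6.45% and 5.73% of all TPM, against 0.498% and 0.0669% in Bil_2D. On the TPM scale 8 of 10 rose in Hep_3D and 0 fell, where 6.80% of all genes tested were called higher. No member was lower at an unadjusted p under 0.05 in limma on either scale. With size factors 6 of 10 rose (11.9% of all genes), with Apoc1 and Apoe no longer called, and 6 also rose with no filter and with quantile scaling. The median log2 fold change of the members was 5.99 on the TPM scale and 6.65 after size-factor scaling. The groups did not overlap for 9 of 10 members on either scale, where 11.1% of all genes had both Hep_3D libraries above both Bil_2D libraries in TPM and 33.6% after size-factor scaling. Apoa4 entered the test through its Hep_3D values alone, since it was under 1 TPM in both Bil_2D libraries, and so could only differ in that direction. Leaving out either Hep_3D library lowered the count of members that rose from 8 to 5 on the TPM scale and from 6 to 4 after size-factor scaling.

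**Figure D1:**
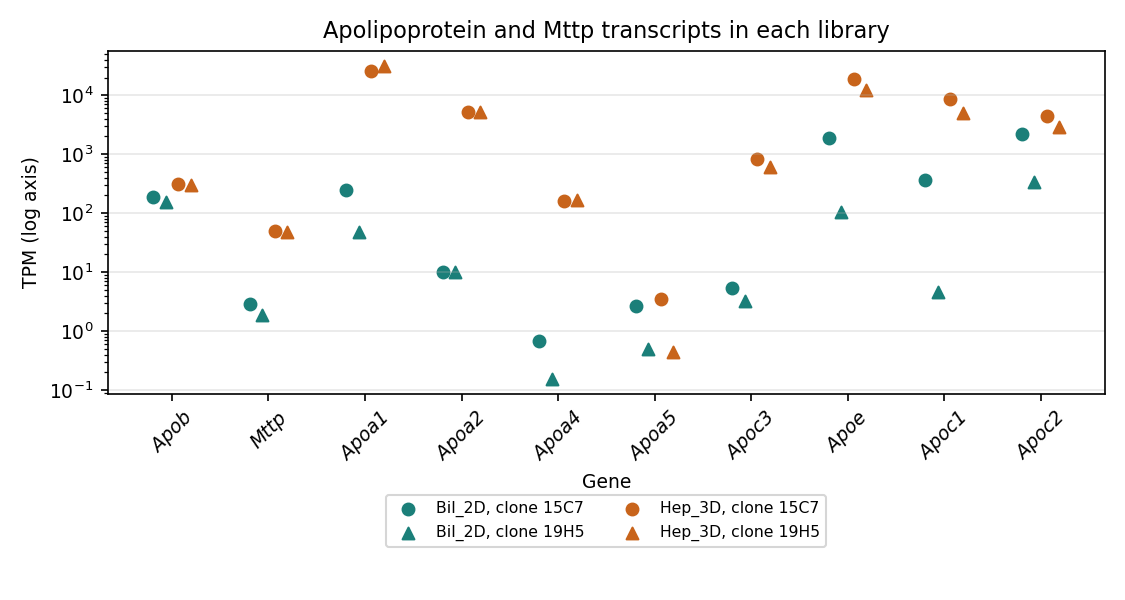
TPM on a log axis (vertical) of the 10 genes in each of the 4 libraries, colored by state and shaped by clone; each point is 1 library. The Hep_3D points lie above both Bil_2D points for every gene but Apoa5, and the Bil_2D points of Apoc1 and Apoe lie far apart.

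Apob encodes the structural protein of VLDL, of which each particle carries a single copy (chromosome 12, 7977648 to 8016835, plus strand). It stood at 191 and 152 TPM in the Bil_2D libraries of clones 15C7 and 19H5 and at 315 and 297 TPM in Hep_3D. Both biliary libraries were lower, where Apob ranked 823 and 986 by TPM, and the 2 groups did not overlap. Apob rose by a log2 fold change of 0.84 (SE 0.16, adjusted p = 0.0152 in limma), or 1.65 after size-factor scaling (adjusted p = 0.00797). The TPM call was lost without Bil_2D replicate 2 (adjusted p = 0.0640) and without Hep_3D replicate 1 (0.0703) or 2 (0.0640). The call after size-factor scaling was lost without any 1 of the 4 libraries, at adjusted p of 0.0518 and 0.0696 without Bil_2D replicates 1 and 2 and 0.0516 and 0.0544 without Hep_3D replicates 1 and 2.

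Mttp, on chromosome 3 (138089854 to 138144968, minus strand), had 2.83 and 1.87 TPM in Bil_2D and 50.8 and 47.3 TPM in Hep_3D. Both hepatocyte libraries were well above both biliary ones, with little spread inside either state. Mttp rose by 3.92 on the log2 scale (SE 0.21, adjusted p = 0.00312 in limma) and by 4.59 after size-factor scaling. The ratio of Apob to Mttp, which does not depend on how libraries are scaled, was 67.5 and 81.4 in Bil_2D and 6.20 and 6.29 in Hep_3D. Transcripts of the carrier and its loading protein therefore stood in a different proportion in the 2 states, in both clones.

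Apoa1, the main HDL protein and the acceptor of cholesterol exported from cells (chromosome 9, 46228580 to 46230466, plus strand), was the most abundant member in Hep_3D. It had 243 and 48.4 TPM in Bil_2D and 25939.7 and 30945 TPM in Hep_3D, where it was the 4th most abundant transcript of each library. The biliary level differed between the clones but lay far under the hepatocyte level in both. Apoa1 rose by 8.01 (SE 0.80, adjusted p = 0.00570 in limma; 8.82 after size-factor scaling). The call after size-factor scaling was lost without Hep_3D replicate 1 (adjusted p = 0.0545) or 2 (0.0610). There were 82.4 and 104 Apoa1 transcripts per Apob transcript in Hep_3D by TPM, against 1.27 and 0.318 in Bil_2D. In the Bil_2D library of clone 19H5 Apob was above Apoa1, and in the other 3 libraries it was below.

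Apoa2 encodes the second HDL protein (chromosome 1, 171225054 to 171226379, plus strand). Its levels were 9.97 and 10.2 TPM in Bil_2D and 5289 and 5245 TPM in Hep_3D, so that libraries of the same state nearly coincided. Its log2 fold change of 8.89 was the highest of the members and 16th among all genes tested (SE 0.11, adjusted p = 0.000406 in limma; 9.67 after size-factor scaling). Apoa4, an apolipoprotein of chylomicrons and HDL best known from the intestine (chromosome 9, 46240696 to 46243459, plus strand), had 0.688 and 0.157 TPM in Bil_2D and 162 and 171 TPM in Hep_3D. It rose by 6.90 (SE 0.24, adjusted p = 0.00176 in limma), and by 4.98 and 8.53 with pseudocounts of 5 and 0.1 in place of 1. Of the 8 markers of enterocytes, Sis and Cdx1 were listed at 0 in all 4 libraries. Fabp2, Alpi, Lct and Slc5a1 were under 1 TPM throughout, while Cdx2 and Vil1 each reached 1 TPM in at least 1 library. The summed level of the 8 markers was 281 and 67.5 TPM in Bil_2D and 73.8 and 39.5 TPM in Hep_3D. Most of it came from Vil1, which duct cells also express (265 and 55.9 TPM in Bil_2D, 73.5 and 35.6 TPM in Hep_3D). In both Bil_2D libraries most of the remainder was Cdx2. The part of these markers in the Apoa4 result was not tested. GENCODE places Gm47528 and the antisense gene Gm10680 over Apoa4 on the other strand, and the strandedness of the libraries is not given in the sources used here, so reads from these genes could not be told apart.

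Apoa5, a liver apolipoprotein that promotes triglyceride clearance (chromosome 9, 46268633 to 46271919, plus strand), was low in both states. It had 2.71 and 0.499 TPM in Bil_2D and 3.50 and 0.447 TPM in Hep_3D. Both clone 15C7 libraries were higher than both clone 19H5 libraries, and the states overlapped. Its log2 fold change was 0.11 (SE 0.74, adjusted p = 0.904 in limma) and 0.55 after size-factor scaling (adjusted p = 0.628). Its sign on the TPM scale turned negative without Bil_2D replicate 2 or Hep_3D replicate 1. An antisense gene, Gm47544, overlaps it.

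Apoc3, an inhibitor of lipoprotein lipase and of remnant uptake (chromosome 9, 46232933 to 46235636, minus strand), had 5.43 and 3.24 TPM in Bil_2D and 846 and 601 TPM in Hep_3D. The biliary values were low in both clones. Apoc3 rose by 7.10 (SE 0.29, adjusted p = 0.00222 in limma; 7.82 after size-factor scaling). Thus 3 of the 4 genes in the chromosome 9 group, Apoa1, Apoc3 and Apoa4, rose on both scales, while Apoa5 was not called. The genes beyond Apoa5, Zpr1 and Bud13, differed by -0.73 and -0.88 in log2 TPM. Both were called lower there (adjusted p = 0.0282 and 0.0183 in limma), as were 51.9% of all genes tested. After size-factor scaling they differed by 0.06 and -0.12, and neither was called (adjusted p = 0.813 and 0.627 in limma).

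**Figure D2:**
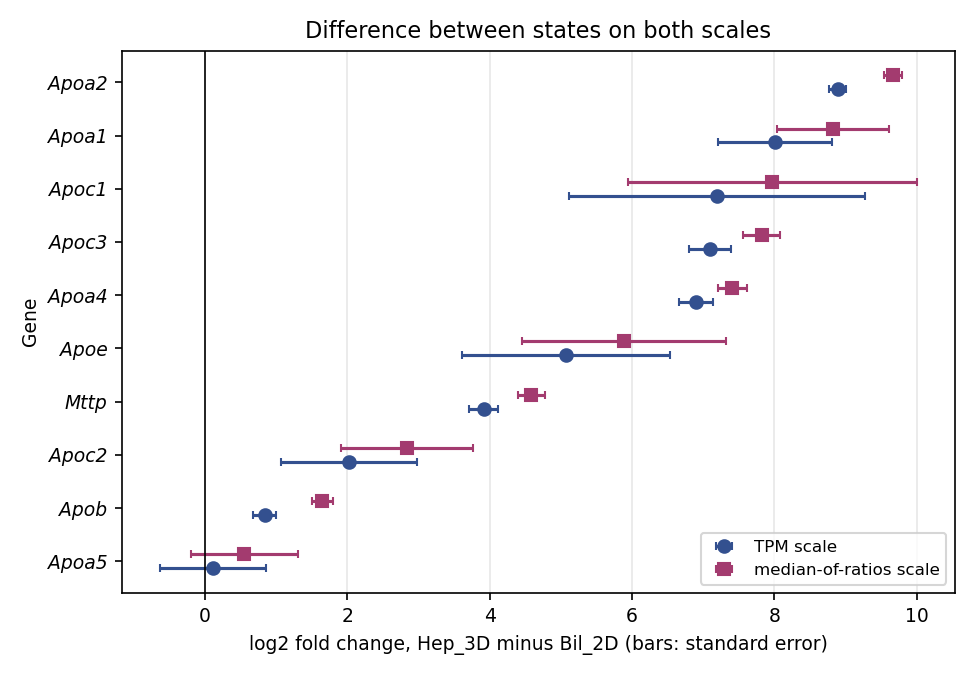
Log2 fold change of each gene (horizontal, Hep_3D minus Bil_2D, n = 2 a group) with its standard error from limma, on the TPM scale (circles) and after median-of-ratios scaling (squares). Apoa2 has the highest value and a short bar, Apoc1 and Apoe have the longest bars, and only the bars of Apoa5 cross 0.

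The chromosome 7 group varied most inside Bil_2D. Apoe, the ligand by which remnant particles bind liver receptors (19696109 to 19699188, minus strand), had 1922 TPM in clone 15C7 and 104 TPM in clone 19H5 among the biliary cultures, and 18976 and 12117 TPM in Hep_3D. The 4 values did not overlap between states, but the biliary libraries were 18.4 times apart. Apoe rose by 5.07 on the log2 scale (SE 1.45, adjusted p = 0.0408 in limma). Its value was 5.89 after size-factor scaling, where it was not called (adjusted p = 0.0553), and the TPM call was lost without Hep_3D replicate 1 (0.156) or 2 (0.132), with no filter (0.0769) or with quantile scaling (0.0940). Without the 19H5 biliary library its log2 fold change on the TPM scale was 2.98. With clone as a replicate block after size-factor scaling, a setting added after seeing the data, its adjusted p was 0.0370 in limma.

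Macrophages also make Apoe. Of their markers, Marco was listed at 0 in all 4 libraries, Adgre1 and Clec4f in 3 of them, and 6 of 9 markers were under 1 TPM throughout. The summed level of the 9 markers was 7.60 and 13.6 TPM in Bil_2D and 2.92 and 3.13 TPM in Hep_3D, with Cd68 lower and Ptprc, at under 1 TPM, higher in both Hep_3D libraries. Their part in the Apoe result was not tested. Stellate and endothelial markers summed to at most 1.63 and 0.409 TPM in any library.

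Apoc1, which restrains lipid transfer and particle uptake (19689481 to 19692660, minus strand), had 359 and 4.53 TPM in Bil_2D and 8572 and 4975 TPM in Hep_3D. The biliary libraries of clones 15C7 and 19H5 were 79.3 times apart, the widest clone gap of any member. Apoc1 rose by 7.19 (SE 2.08, adjusted p = 0.0417 in limma), and was not called after size-factor scaling (7.97, adjusted p = 0.0610) or without Hep_3D replicate 1 (0.156) or 2 (0.136), with no filter (0.0769) or with quantile scaling (0.0688). Without the 19H5 biliary library its log2 fold change on the TPM scale was 4.18. With clone as a replicate block after size-factor scaling, a setting added after seeing the data, its adjusted p was 0.0409 in limma.

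Apoc2, the cofactor that lipoprotein lipase requires (19671579 to 19677941, minus strand), was the most abundant member in Bil_2D. It had 2246 and 344 TPM there and 4395 and 2914 TPM in Hep_3D, with the 15C7 biliary library close to the 19H5 hepatocyte library. Its log2 fold change of 2.02 (SE 0.96) missed the threshold (adjusted p = 0.132 in limma, 0.101 after size-factor scaling, 0.0552 with clone as a replicate block). Without the 15C7 biliary library it passed, at 3.38 (adjusted p = 0.0390), and without the 19H5 one it was 0.67. GENCODE annotates Gm44805, a transcript unit on the same strand that spans Apoc2 and Apoc4, so the split of reads between these genes is uncertain; Gm44805 had 1.09 to 12.3 TPM.

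Within each clone the rise from biliary to hepatocyte culture could be read as a ratio of TPM. In clone 15C7 it was 9.87 for Apoe, 23.9 for Apoc1 and 1.96 for Apoc2, and in clone 19H5 it was 116, 1098 and 8.48. For Apoa2 the ratio was nearly the same in both clones, at 531 and 512, and for Apob it was 1.65 and 1.95. Apoc3 had ratios of 156 and 185 and Mttp of 18.0 and 25.3, while Apoa1 had 107 and 639 and Apoa4 235 and 1087. The direction was shared by both clones in 9 of 10 members in TPM, with Apoa5 the exception, and in 10 of 10 after size-factor scaling. Whether the ratios differ between clones could not be tested, because each rests on 1 library per state.

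The clone gap was mostly a feature of the biliary libraries. In Bil_2D clone 15C7 was above 19H5 in TPM by 6.53 times for Apoc2, 5.43 times for Apoa5, 5.02 times for Apoa1 and 4.38 times for Apoa4, besides the larger gaps of Apoe and Apoc1. In Hep_3D the same comparison gave 1.51 for Apoc2, 1.57 for Apoe and 1.72 for Apoc1, and 0.838 and 0.949 for Apoa1 and Apoa4. Apoa5 was the exception, with 7.83. Of the 12336 genes tested, 3 had a larger absolute clone difference within Bil_2D than Apoc1 on the log2(TPM + 1) scale, 20 a larger one than Apoe, 94 than Apoc2 and 140 than Apoa1. The neighbours of the chromosome 7 group, Clptm1 and Tomm40, had clone ratios of 1.13 and 0.895 in Bil_2D.

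**Figure D3:**
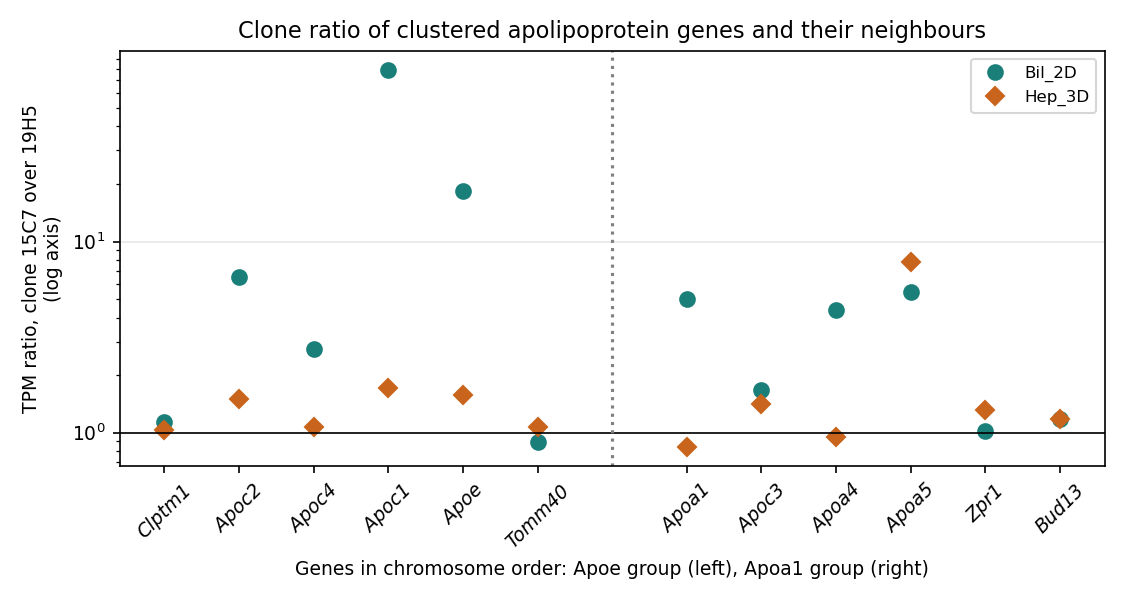
Ratio of TPM in clone 15C7 to clone 19H5 (vertical, log axis) in Bil_2D (circles) and Hep_3D (diamonds) for the chromosome 7 genes (left) and chromosome 9 genes (right) in genomic order, with flanking genes; each point is 1 library over another. Apoc1 and Apoe reach 79.3 and 18.4 in Bil_2D and 1.72 and 1.57 in Hep_3D, and the flanking genes lie between 0.895 and 1.31.

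A test of the clones over both states called no member. With cell state as a term, limma gave adjusted p from 0.260 to 0.970 for the 10 genes, 0 were called on either scale, and the share of all genes called was 0.00%. At an unadjusted p under 0.05 there were 2 members, Apoa5 and Apoc3, and 1599 of all genes. This fit has 1 residual degree of freedom and little power. Members above in clone 15C7 in both states numbered 7 of 10, where 40.0% of all genes tested were. Some markers, but not the lists as a whole, also differed between the biliary clones. Alb was 140 and 18.4 TPM and Ttr 1165 and 125 TPM in the 15C7 and 19H5 Bil_2D libraries. Krt19 was 752 and 1615 TPM in the same libraries. The 9 hepatocyte markers together gave 1308 and 148 TPM, with 5 of 9 higher in 15C7, and the 9 biliary markers 5799 and 9356 TPM, with 4 of 9 higher in 15C7. Their part in the apolipoprotein difference was not tested.

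The order of the members by TPM changed between the states. In Hep_3D it ran Apoa1, Apoe, Apoc1, Apoa2, Apoc2, Apoc3, Apob, Apoa4, Mttp and Apoa5 by group mean, and of these neighbours only Apoc1 and Apoa2 had overlapping values. In Bil_2D it ran Apoc2, Apoe, Apoc1, Apob, Apoa1, Apoa2, Apoc3, Mttp, Apoa5 and Apoa4, and among the first 5, and among the last 3, the range of each gene overlapped that of the next. Within the first 5, Apoc2 still had the highest TPM in both libraries, and Apoe was above Apoc1 and Apoa1 in both. The ratio of Apoc1 to Apoe was 0.187 and 0.0434 in Bil_2D and 0.452 and 0.411 in Hep_3D. That of Apoc2 to Apoe was 1.17 and 3.29 in Bil_2D and 0.232 and 0.240 in Hep_3D, so Apoc2 exceeded Apoe in both biliary libraries and in neither hepatocyte library. Of the 10 genes, those among the 100 most abundant transcripts numbered 5 in each Hep_3D library, 2 in the 15C7 Bil_2D library and 0 in the 19H5 one.

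Other genes of the lipoprotein pathway were read by role, from lists chosen with earlier results of these data known. Of 7 further apolipoproteins 6 were tested, and 4 rose and 0 fell on both scales. On either scale 0 were lower at an unadjusted p under 0.05 in limma. Of all genes tested 6.80% were called higher on the TPM scale and 11.9% after size-factor scaling. The median log2 fold change of the 6 was 3.98 in TPM and 4.77 after size-factor scaling, beside -0.73 and -0.02 for all genes. With clone as a replicate block 5 rose on the TPM scale. The fifth was Apom, named after its values were seen (3.75, adjusted p = 0.00923 in limma with the block and 0.0711 without it). Clu, also named after its values were seen, had 4070 and 3051 TPM in Bil_2D and 3961 and 3281 TPM in Hep_3D. It was called on neither scale (adjusted p = 0.910 in limma, 0.0641 after size-factor scaling). Apoh, which binds phospholipid, had 15.3 and 8.32 TPM in Bil_2D and 2220 and 3099 TPM in Hep_3D, a log2 fold change of 7.73 (adjusted p = 0.00245 in limma). Apof, found on HDL and LDL, had 0.676 and 0.803 TPM in Bil_2D and 143 and 130 TPM in Hep_3D. Apof entered the test through Hep_3D alone and so could only be called higher. Apoc4, in the chromosome 7 group, had 54.4 and 19.8 TPM in Bil_2D and 650.4 and 610.0 TPM in Hep_3D. It rose by 4.22 (adjusted p = 0.00661), and its biliary clone ratio was 2.74. Apon rose by 3.55, but not without Bil_2D replicate 1 (adjusted p = 0.0886) or 2 (0.0816).

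Genes of VLDL assembly and secretion numbered 15, all tested. On the TPM scale 7 rose and 0 fell (1 lower at an unadjusted p under 0.05 in limma). After size-factor scaling 10 rose and 0 fell (0 lower at that p). Of all genes tested 6.80% and 11.9% were called higher on these scales. The medians of the 15 genes, 0.93 and 1.74, compare with -0.73 and -0.02 for all genes. With clone as a replicate block 8 rose and 1 fell. Without Bil_2D replicate 2 the first count was 4, and without Hep_3D replicate 2 it was 2. Aadac, an endoplasmic reticulum lipid hydrolase, had 0.312 and 0.0710 TPM in Bil_2D and 110 and 109 TPM in Hep_3D. Aadac entered the test through Hep_3D alone and so could only be called higher. A1cf, the RNA-binding partner of the enzyme that edits the Apob transcript, had 2.63 and 0.558 TPM in Bil_2D and 17.7 and 35.8 TPM in Hep_3D. Dgat2, of triglyceride synthesis, had 27.8 and 18.0 TPM in Bil_2D and 148 and 154 TPM in Hep_3D, and Tm6sf2, which aids VLDL lipidation, had 14.6 and 11.5 against 27.8 and 32.6 TPM. These genes rose by 6.54 for Aadac (4.46 and 8.69 with pseudocounts of 5 and 0.1), 3.46 for A1cf (2.23 with a pseudocount of 5), 2.70 for Dgat2 and 1.16 for Tm6sf2 (1.93 after size-factor scaling). A1cf lost its call without Hep_3D replicate 2 (adjusted p = 0.0538 in limma), and Tm6sf2 without Bil_2D replicate 2 (0.0582) or Hep_3D replicate 2 (0.0586).

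Of 11 genes that remodel lipoproteins in plasma, 9 were tested. On the TPM scale 4 rose and 1 fell (6.80% of all genes were called higher there and 51.9% lower). After size-factor scaling 6 rose and 0 fell (11.9% of all genes were called higher there and 9.54% lower). On that scale 0 of these 9 were lower at an unadjusted p under 0.05 in limma. Without Hep_3D replicate 1, 2 rose on the TPM scale, and without any 1 library 0 fell. Lcat, which esterifies HDL cholesterol, had 5.57 and 1.07 TPM in Bil_2D and 223 and 66.6 TPM in Hep_3D and rose by 5.06 (adjusted p = 0.0108 in limma, 0.0525 without Bil_2D replicate 2). Lpl, the lipase that hydrolyses particle triglyceride, had 12.5 and 6.59 TPM against 61.7 and 77.4 TPM and rose by 2.79. Lipc, hepatic lipase, was low throughout, with 0.0535 and 0.404 TPM in Bil_2D and 3.20 and 1.27 TPM in Hep_3D, and entered the test through Hep_3D alone, so that it could only be called higher. Its log2 fold change was 1.34, and 0.46 to 2.93 at pseudocounts of 5 and 0.1. Its adjusted p was 0.0438, and 0.0623 with a pseudocount of 5, 0.0650 with no filter, 0.0528 after size-factor scaling, 0.0582 with clone as a replicate block, 0.165 and 0.0945 without Bil_2D replicates 1 and 2, and 0.111 without Hep_3D replicate 1. The gene that fell was Pltp, a phospholipid transfer protein named after its values were seen, with 1.52 and 1.34 TPM against 0.336 and 0.213 TPM; it entered the test through Bil_2D alone and could only be called lower.

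Genes of lipoprotein uptake and lipid efflux numbered 17, of which 14 were tested; 3 rose and 1 fell on the TPM scale (6.80% of all genes higher and 51.9% lower) and 5 rose and 0 fell after size-factor scaling (11.9% of all genes higher; 0 of the 14 lower at an unadjusted p under 0.05 in limma). Their medians of 0.04 and 0.84 compare with -0.73 and -0.02 for all genes. Without either Bil_2D library 0 fell on the TPM scale, and without Hep_3D replicate 1, 2 fell. With clone as a replicate block 4 rose and 2 fell; the added gene that rose was the receptor Lrp1, named after its values were seen (3.59, adjusted p = 0.0218 with the block and 0.0539 without it). The 3 that rose without the block were exporters. Of these, 2 (Abcg5 and Abcg8) passed the filter through Hep_3D alone and could only be called higher, so the filter fixed their direction. Abca1, which loads Apoa1 protein with cholesterol, had 4.20 and 0.885 TPM in Bil_2D and 51.4 and 35.8 TPM in Hep_3D and rose by 3.81 (adjusted p = 0.00862 in limma). Abcg5 and Abcg8, the subunits of the sterol exporter into bile, rose by 3.10 and 2.87; Abcg5 had 0.299 and 0 TPM in Bil_2D and 9.62 and 7.97 TPM in Hep_3D. Their values depended on the pseudocount, from 1.42 to 5.47 for Abcg5 and from 1.28 to 4.90 for Abcg8 at pseudocounts of 5 and 0.1. Both entered the test through Hep_3D alone, and their annotated spans overlap on opposite strands, so reads may be shared. Lrp8, a receptor for Apoe protein, had 5.83 and 6.34 TPM in Bil_2D and 3.00 and 1.17 TPM in Hep_3D and fell by 1.27 (adjusted p = 0.0390), but was not called after size-factor scaling (-0.65, adjusted p = 0.271) or without Bil_2D replicate 1 (0.129) or 2 (0.140) or Hep_3D replicate 2 (0.0800). Its call was also lost with a pseudocount of 0.1 (0.0516), no filter (0.0802), quantile scaling (0.176) or the 50 most abundant genes left out (0.147).

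**Figure D4:**
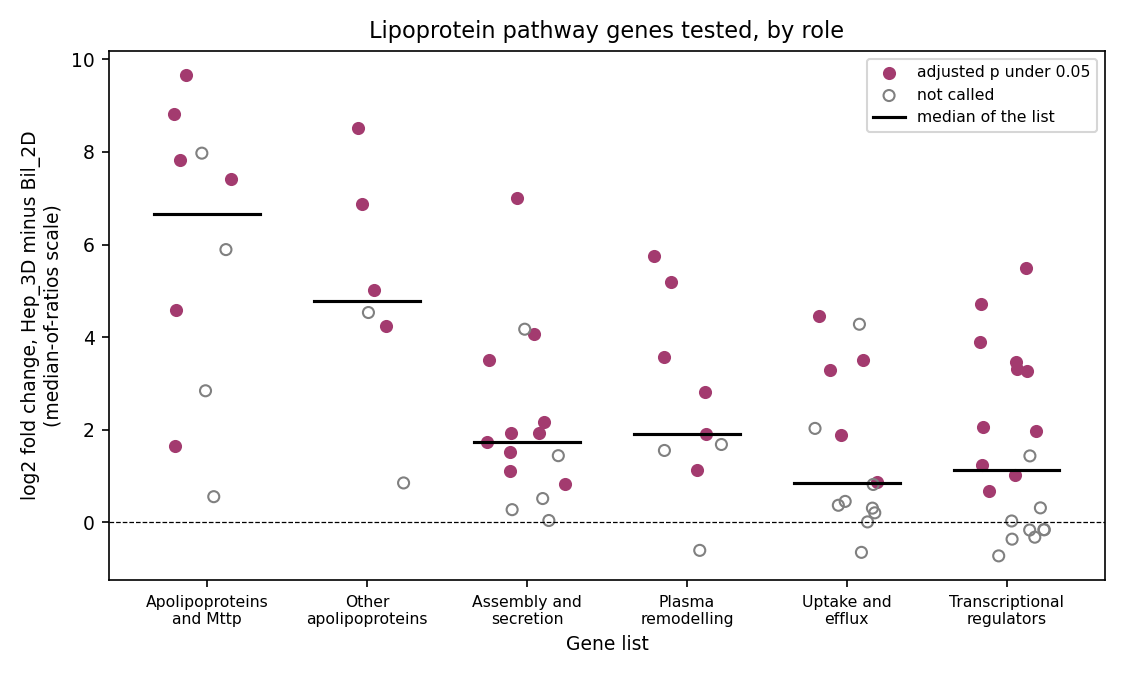
Log2 fold change after median-of-ratios (size-factor) scaling (vertical, Hep_3D minus Bil_2D) of every tested gene in 6 lists; filled points have an adjusted p under 0.05 in limma, open points do not, and bars are list medians. The medians run from 6.65 for the apolipoproteins and Mttp to 0.84 for uptake and efflux, beside -0.02 for all genes tested.

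Of 22 transcriptional regulators known to act on lipoprotein genes, 20 were tested; 8 rose and 4 fell on the TPM scale (6.80% of all genes higher and 51.9% lower), and 11 rose and 0 fell after size-factor scaling (11.9% of all genes higher; 1 of the 20 lower at an unadjusted p under 0.05 in limma), with medians of 0.36 and 1.13. Leaving out either Hep_3D library left 4 that rose on the TPM scale, and leaving out either Bil_2D library left 1 that fell. Creb3l3, a membrane-anchored factor known to activate apolipoprotein genes in fasting, had 2.94 and 0.873 TPM in Bil_2D and 89.0 and 66.8 TPM in Hep_3D and rose by 4.85 (adjusted p = 0.00513 in limma). Cebpa, a regulator of liver metabolism, had 4.91 and 4.65 TPM against 106 and 77.4 TPM and rose by 3.99. Nr5a2, a nuclear receptor of cholesterol metabolism, had 0.557 and 0.458 TPM against 22.1 and 9.75 TPM and rose by 3.39 (1.86 with a pseudocount of 5). Nr5a2 entered the test through Hep_3D alone and so could only be called higher. Foxa3 had 16.3 and 4.38 TPM against 72.6 and 53.3 TPM and rose by 2.71; its call was lost without Hep_3D replicate 1 (adjusted p = 0.104) or 2 (0.0843).

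Likeness to the members' mean pattern was measured as the Euclidean distance between centred log2(TPM + 1) profiles over the 4 libraries. Among the 5 nearest other genes were Tmprss6 (distance 0.154), Urah (0.322), Prg4 (0.422) and Steap4 (0.493). Tmprss6, a liver protease of iron regulation, had 4.52 and 0.636 TPM in Bil_2D and 113 and 74.7 TPM in Hep_3D. The mean pattern hides the spread between members described above, from Apoa2, with clone ratios of 0.972 in Bil_2D and 1.01 in Hep_3D, to Apoc1, with the widest gap.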

How the data were processed

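The authors deposited TPM per gene symbol for 4 libraries of total RNA. Salmon, DESeq2 and mm10 are listed in the submitters' processing notes without roles or versions, and the annotation is not given in the sources used here. No counts were used, so depth is unknown. Each library sums to 1000000 TPM and listed 11247 to 12266 genes at 1 TPM or more.

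Genes reaching 1 TPM in 2 or more libraries were fitted with limma 3.58.1 in R 4.3.3 (trended empirical Bayes, Benjamini-Hochberg adjustment over 12336 genes) on log2(TPM + 1), for the state and, with state as a term, for the clone. The code was tested on simulated data. The labels name the clone of each library and so pair the samples; the correlation between libraries of 1 clone, after removing each state's mean, was 0.414. Nothing says that libraries were separate cultures or animals beyond clone, so the p-values cover only the spread seen among these 4 libraries.

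The members and lists were chosen with earlier results of these data known. All 10 members were named, with up to 4 called, non-overlapping genes per list by absolute fold change and the 5 nearest profiles; 1 gene that the rule selects is not reported here. Alternatives were pseudocount, filter, median-of-ratios and quantile scaling, leaving out the 50 most abundant genes, the clone block and leaving out each library.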

Additional observations from a re-analysis of the deposited data

Results flagged for a closer look

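Apoa5 differed in direction between the clones in TPM but not after median-of-ratios scaling. Its TPM was higher in Hep_3D than in Bil_2D by 0.791 in clone 15C7 and differed by -0.052 in clone 19H5, while every other member was higher in Hep_3D in both clones. After median-of-ratios scaling the ratio of Hep_3D to Bil_2D was 2.29 in clone 15C7 and 1.57 in clone 19H5, the same direction in both. The difference between the clones was not tested, since each clone gave 1 library per state, and both 19H5 TPM values were under 1 TPM.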

How the results depend on the processing

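The count of members higher in Hep_3D was 8 on the TPM scale; it was 5 when the 50 most abundant genes, among them Apoa1, Apoc1 and Apoe, were left out (7 members tested), and 5 to 9 when 1 library was left out. Median-of-ratios scaling was planned. Leaving out 1 library on that scale, and the clone block on that scale, were alternatives added after seeing the data. No member was lower under any setting run. With clone as a replicate block, the pairing left 8 members higher on both scales, gave 1 assembly and secretion gene and 2 uptake and efflux genes lower, and changed no other call of a member on the TPM scale. Quantile scaling gave 11 assembly and secretion, 7 plasma remodelling and 5 uptake and efflux genes higher, and median-of-ratios scaling 5 of the last. Leaving out 1 library gave 2 to 7 assembly and secretion genes higher, 2 to 5 plasma remodelling genes and 4 to 9 regulators. The plasma remodelling gene that was lower became 0 with a filter of 5 TPM, median-of-ratios or quantile scaling, the 50 genes left out, and each library left out (0 to 0). The uptake and efflux gene that was lower became 0 with a pseudocount of 0.1, either scaling or the 50 genes left out, and 0 to 2 with 1 library left out. Regulators called lower, 4 on the TPM scale, numbered 2 with no filter, 0 with median-of-ratios scaling, 1 with quantile scaling, 1 with the 50 genes left out, and 1 to 3 with 1 library left out.

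The log2 fold change of Apoa5 ran from -0.70 (no Hep_3D replicate 1) to 0.93 (no Hep_3D replicate 2) with 1 library left out, was -0.54 lacking Bil_2D replicate 2, and on the median-of-ratios scale turned to -0.00017 without Bil_2D replicate 2 and -0.34 when Hep_3D replicate 1 was left out. Of 116 recomputed values for the members under planned settings 100 kept their direction and side of the threshold, as did 214 of 239 for the named pathway genes. Of 50 further member values under settings added after seeing the data, 35 did. Where a group kept 1 library, it was assumed to vary like the other group; leaving out a library in the clone comparison leaves no residual degree of freedom, so it was not run. For changes other than fewer genes or libraries tested, the cause was not tested. TPM keeps no depth, so counting error at low levels such as Apoa5 and Lipc is unknown.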
